A study of Homo sapiens with 20 samples.

Results

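The guanylate-binding proteins (GBPs) are interferon-inducible GTPases of the dynamin superfamily, and their 7 human genes, GBP1 to GBP7, were picked out of the 43366 genes of the count table by their symbols. All 7 had a row. They lie together on chromosome 1 (GRCh38, chr1:89006680-89388160), GBP6 on the plus strand and the others on the minus strand, and their rule used no measured value. Poly(A) RNA was sequenced from 20 libraries of U2OS, a human osteosarcoma cell line, in 4 groups of 5 clones. WT clones and ZBTB48 KO clones, in which the gene for the zinc finger protein ZBTB48 was targeted, were each left untreated or treated with 250 U/ml interferon gamma (IFNγ) for 24 h. Each clone gave 1 untreated and 1 treated library, so the 5 replicates of a group are 5 clones of a single line. The comparisons ask how far the family responds to IFNγ, and whether the clones labelled ZBTB48 KO differ from WT in its level or its response.

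As background, IFNγ binds its receptor on the cell surface and activates the kinases JAK1 and JAK2. The signal reaches promoters through the gamma-activated site (GAS) and raises the factor IRF1, which acts through the interferon-stimulated response element (ISRE). GBPs made in response coat bacteria and the vacuoles of intracellular pathogens, break these membranes open and expose bacterial products to inflammatory caspases. GBP1, GBP2 and GBP5 end in a motif that receives a lipid (prenyl) anchor, which holds them on membranes. The other members lack that motif.

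Libraries held 46652288 to 72952859 counts, with group medians between 52383474 and 58816211. Levels are given in CPM (counts scaled to a common library total) on library sizes scaled by the TMM method, so a library's floor of 3 counts lay between 0.0404 and 0.0610 CPM. These floors cover counting error only, whereas the intervals given by edgeR also take in the spread between clones. ZBTB48 mRNA stood between 8.03 and 11.6 CPM in the 10 WT libraries. It stood between 1.29 and 5.27 CPM in 8 of the 10 libraries labelled KO. In labelled KO replicate 3 it was not reduced, with 11.3 CPM untreated and 15.8 CPM treated. The mRNA level does not show whether a clone has lost the protein, so it cannot decide whether this label is right. The paper reports low to undetectable CIITA protein across its KO clones after IFNγ. It also reports ZBTB48 binding at a CIITA promoter far stronger in WT clones than in KO clones. Transcripts of MTFP1, VWA5A and PXMP2 were lower in its KO clones with or without IFNγ. ZBTB48 protein was not measured here, and the clones labelled KO are therefore called that throughout. After removal of group means, the untreated and treated libraries of a clone deviated together across 21052 genes, with correlations of 0.63 to 0.80 in WT and of 0.60 to 0.79 in KO replicates 1 to 3. KO replicates 4 and 5 had correlations of -0.020 and 0.045, and each untreated library of that pair resembled the treated library of the other number more, with 0.59 and 0.67. Tests that rest on replicates 3, 4 and 5 are given with and without them where stated, and levels, shares and spreads of the KO group include all 5 clones. Leukocytes are rich in GBPs. Of their 6 markers, 4 or 5 had a count in each group, CD3E, a T cell marker, was at 0 in every library of the 3 groups other than untreated WT, where it had at most 4 counts, and the summed level was 0.53 to 1.39 CPM in WT and 0.33 to 1.19 CPM in the libraries labelled KO. The 3 endothelial markers PECAM1, CDH5 and VWF summed to 1.11 to 4.13 CPM. All 6 mesenchymal and bone-lineage markers had counts in each group, though COL1A2, a collagen gene, averaged under 1 CPM. Their summed level had a median of 8245 CPM in untreated WT, 5401 in treated WT, 4759 in untreated KO and 3353 in treated KO. COL1A1, SPARC and VIM made up nearly all of that sum, and the means of VIM and ALPL were higher after IFNγ in both genotypes. The part of these levels in the results was not tested. In bulk RNA, fewer cells that express a gene and less of its RNA per cell cannot be told apart.

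Promoter sequences from RefSeq (GRCh38.p14) were at hand for 5 of the 7 members, GBP1, GBP3, GBP4, GBP6 and GBP7, and their start sites coincided with those of the count table. The 250 bases before the start are shown for 4 of them, because these 4 differ in response: GBP1 and GBP4 were abundant after IFNγ, GBP3 was the member with the highest untreated level, and GBP7 stayed near 0. Capitals mark matches to the ISRE core GAAANNGAAA or the GAS core TTCNNNGAA, searched on both strands; the GAS core reads the same on both, and the patterns did not overlap in these windows. GBP1 lies at chr1:89065209-89065458, GBP3 at chr1:89022867-89023116, GBP4 at chr1:89198943-89199192 and GBP7 at chr1:89176004-89176253, all on the minus strand and written 5′ to 3′ in the direction of the gene.
GBP1: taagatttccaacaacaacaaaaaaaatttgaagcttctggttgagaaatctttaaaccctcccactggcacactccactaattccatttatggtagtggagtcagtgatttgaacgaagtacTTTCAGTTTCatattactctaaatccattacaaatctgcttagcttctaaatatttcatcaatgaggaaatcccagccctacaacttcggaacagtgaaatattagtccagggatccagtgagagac
GBP3: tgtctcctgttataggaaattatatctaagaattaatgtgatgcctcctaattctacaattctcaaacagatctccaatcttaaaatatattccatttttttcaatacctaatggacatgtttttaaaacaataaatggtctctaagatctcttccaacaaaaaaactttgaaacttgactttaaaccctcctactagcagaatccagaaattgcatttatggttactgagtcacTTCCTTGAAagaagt
GBP4: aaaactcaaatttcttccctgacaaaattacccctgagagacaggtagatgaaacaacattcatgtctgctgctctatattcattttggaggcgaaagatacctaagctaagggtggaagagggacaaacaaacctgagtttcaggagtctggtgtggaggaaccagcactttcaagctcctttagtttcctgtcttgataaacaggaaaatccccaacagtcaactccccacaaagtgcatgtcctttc
GBP7: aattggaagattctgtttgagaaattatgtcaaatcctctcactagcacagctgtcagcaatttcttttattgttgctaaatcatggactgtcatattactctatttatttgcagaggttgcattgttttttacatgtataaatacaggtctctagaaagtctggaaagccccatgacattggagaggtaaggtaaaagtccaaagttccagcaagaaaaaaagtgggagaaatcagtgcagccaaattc

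The GBP1 window held an ISRE core match, TTTCAGTTTC, from 127 to 118 bases before the start, on the strand opposite to the gene. The GBP3 window held a GAS core match, TTCCTTGAA, from 15 to 7 bases before the start. The windows of GBP4, GBP6 and GBP7 held neither pattern. Over all 35116 RefSeq windows of the same length, 3.02% held the ISRE core and 6.57% the GAS core. A match is a run of letters and not a measured binding site, and its absence says only that the letters are not in this window.

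Without IFNγ the family was barely expressed, and GBP3, a member without a prenyl anchor, was the one with the highest level. Its counts were 544, 283, 413, 358 and 316 in WT replicates 1 to 5 and 302, 71, 451, 359 and 327 in the replicates labelled KO. All but KO replicate 2 lay within a narrow band, and the mean level was 6.77 ± 1.82 CPM in WT and 5.44 ± 2.32 CPM in KO (SD, n = 5 each).

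GBP1, the founding member and the first to settle on bacterial surfaces, and GBP2, which follows it there, were lower, and in WT more uneven between clones than GBP3. GBP1 had 60, 98, 114, 279 and 22 counts in untreated WT and 70, 14, 68, 14 and 81 counts in untreated KO. GBP2 had 99, 150, 314, 307 and 49 counts in WT and 129, 13, 228, 90 and 78 counts in KO. The highest WT clone stood 11.7-fold above the lowest for GBP1 and 7.35-fold for GBP2, whereas for GBP3 the ratio was 1.81. Among the clones labelled KO these ratios were 6.79, 14.3 and 5.16. WT replicate 5 had the lowest level of GBP1 and GBP2 and no GBP4 count. KO replicate 2 was lowest for GBP2 and GBP3 and also had no GBP4 count.

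GBP5, GBP6 and GBP7 were at or near the floor in untreated cells, and GBP4 was low in most libraries. GBP4 had 3, 6, 17, 14 and 0 counts in WT and 18, 0, 71, 8 and 17 counts in KO, where replicate 3 supplied most. GBP5, a prenylated member of the Golgi linked to inflammasome activity, had 3, 5, 7, 0 and 3 counts in WT and 0, 0, 5, 2 and 0 counts in KO. GBP6 had 0, 2, 4, 3 and 0 counts in WT and none in any of the 5 libraries labelled KO. GBP7 had no count in WT and 4 counts in KO replicate 5 alone. In KO replicate 3, GBP4 (1.17 CPM) stood as high as GBP1 (1.12 CPM).

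**Figure D1:**
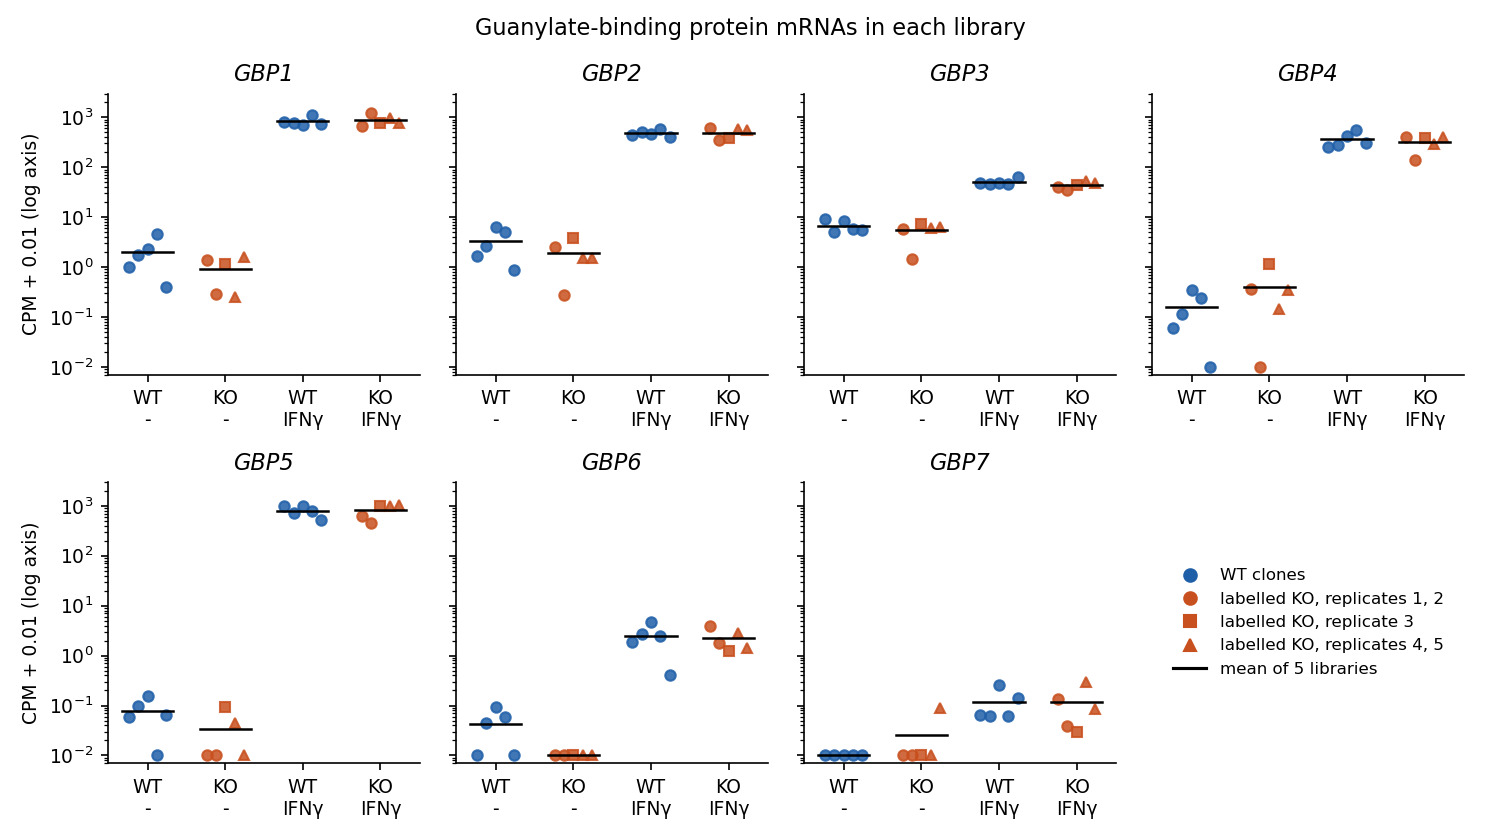
CPM of each member in each of the 20 libraries, with 0.01 added and a log axis; a dash under the group name stands for no IFNγ, and black lines mark the mean of 5 clones. GBP1 to GBP6 show no overlap between treated and untreated libraries of either genotype, and GBP7 stays below 0.3 CPM in all 20. The share of all genes without such overlap was not counted. The flanking genes RBMXL1 and LRRC8D, which were not called, had none in either genotype.

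After IFNγ, 6 of the 7 members rose in WT clones, and GBP7 was too low to be tested. A gene was called where edgeR's quasi-likelihood test gave a Benjamini-Hochberg adjusted p below 0.01 over all genes tested and a change of more than 2-fold, and 2.48% of the 19522 genes tested were called higher. The median log2 fold change of the 6 members was 7.96, against -0.03 over all genes tested. In both genotypes GBP4, GBP5 and GBP6 passed edgeR's expression filter only through their treated libraries. Their calls, and the medians that include them, thus rest on genes admitted by their treated level. With no filter on low counts, 6 members were again called higher in each genotype.

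GBP5 rose from the floor to 999, 708, 1014.5, 778 and 525 CPM in WT replicates 1 to 5. The lowest treated library still held 27924 counts of GBP5 against at most 7 without IFNγ. Its log2 fold change of 13.59 ± 0.46 (SE, adjusted p = 2.7e-08 by edgeR) ranked 2 of all genes tested. With 18 untreated counts in all, the size of this fold rests on few reads and its 95% interval ran from 6125-fold to 24763-fold.

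GBP4, which has no prenyl anchor, rose to 258, 276, 431, 545 and 309 CPM. Its log2 fold change was 11.31 ± 0.59 (adjusted p = 6.65e-07 by edgeR), rank 6, from 40 untreated counts in all. GBP1 rose to 814, 777, 717, 1130.2 and 750.1 CPM, with replicate 4 apart from the others, and GBP2 rose to 440, 503, 463, 585 and 403 CPM. Replicate 4 was thus highest for GBP1, GBP2 and GBP4 after treatment. The log2 fold changes were 8.73 ± 0.62 for GBP1 and 7.19 ± 0.53 for GBP2 (adjusted p = 6.57e-06 and 8.75e-06 by edgeR).

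GBP3 rose least of the members called, from the highest starting level. It reached 49.0, 45.8, 48.4, 45.6 and 64.7 CPM, a log2 fold change of 2.92 ± 0.20 (7.57-fold, 95% interval 5.57 to 10.3, adjusted p = 5.7e-06 by edgeR). GBP6, a member better known from squamous epithelium, had 103, 160, 346, 144 and 21 counts after treatment, which remained a low level of 2.41 ± 1.54 CPM. Its log2 fold change was 6.15 ± 0.84 (adjusted p = 0.000847), and the call was lost without WT replicate 2 (adjusted p = 0.0117 by edgeR, log2 fold change 6.14). GBP7 had 3, 3, 18, 3 and 7 counts. Its mean of 0.106 CPM was at least 1.99-fold above the mean untreated floor of 3 counts per library. Replicates 1, 2 and 4 themselves stood at 3 counts, the floor.

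In the clones labelled KO the same 6 members were called higher, where 1.70% of 19385 genes were. The median log2 fold change of the 6 was 9.75, or 8.81 with GBP6 at the bound given below, against -0.03 over all genes tested. KO replicate 2 was the low clone for 4 members and the high clone for GBP1. GBP5 reached 636, 459, 976, 1002 and 1017 CPM in replicates 1 to 5, a log2 fold change of 14.85 ± 0.59 (95% interval 12079-fold to 71920-fold) from only 7 untreated counts in all. GBP1 reached 664, 1200.4, 753, 965 and 767 CPM, a log2 fold change of 9.89 ± 0.60. GBP4 reached 396, 140.0, 380.4, 292 and 402 CPM, a log2 fold change of 9.62 ± 0.81.

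GBP2 stood at 609, 349, 378, 588 and 552 CPM and GBP3 at 40.3, 34.2, 44.5, 52.7 and 47.3 CPM in these clones after IFNγ. Their log2 fold changes were 8.01 ± 0.61 and 3.01 ± 0.36. GBP6 had 246, 123, 66, 158 and 77 counts after treatment and none before. Its treated mean was at least 40.4-fold above the mean untreated floor of 3 counts per library. GBP7 had 8, 2, 1, 16 and 4 counts, which overlapped the untreated libraries, and was not tested. Adjusted p-values of the 6 called members by edgeR lay between 2.86e-07 for GBP5 and 0.000646 for GBP3. IRF1, the factor that relays the signal to GBP promoters, was also lowest in KO replicate 2, with 294 CPM against 425 to 691 CPM in the other treated clones labelled KO, and its part in the low values of that clone was not tested.

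Without KO replicates 4 and 5, GBP1 and GBP5 were called and the other 4 members were not, in a set of 3 against 3 libraries in which 22 of 19633 genes passed both thresholds. The log2 fold changes were then 9.88 for GBP1, 7.66 for GBP2, 3.01 for GBP3, 9.18 for GBP4 and 14.36 for GBP5, with adjusted p-values by edgeR of 0.00483, 0.0367, 0.12, 0.0469 and 0.00274, and 0.0602 for GBP6. Without replicate 4 alone, GBP3 lost its call (adjusted p = 0.0106 by edgeR, log2 fold change 2.97). All 6 stayed called without replicate 3, whose ZBTB48 mRNA was not reduced, but the log2 fold change of GBP5 was then 16.03 and that of GBP4 10.55.

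Levels of different members were compared per kilobase of exon length. In untreated cells of both genotypes the order ran GBP3, GBP2, GBP1, GBP4. GBP3 stood 2.48-fold above GBP2 in WT and 3.45-fold in KO, in 5 of 5 libraries each, and GBP2 exceeded GBP1 by 1.17-fold and 1.47-fold, in 4 of 5 and 3 of 5 libraries, less than their spread between clones. After IFNγ, GBP3 moved behind the other 3 of these and GBP5. GBP1 came first in treated cells, with 290.5 ± 58.1 CPM per kilobase in WT and 302 ± 74.6 in KO (SD, n = 5 each), and its range did not overlap with that of any other member.

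GBP5 and GBP2 shared the next place, with 118 ± 30.3 and 117 ± 17.04 CPM per kilobase in treated WT. Their means differed by 1.01-fold in both genotypes, and the order of the means held in only 2 of 5 libraries. GBP4 followed with 59.2 ± 19.8 in WT and 52.5 ± 18.1 in KO, then GBP3 with 15.1 ± 2.37 and 13.01 ± 2.08 CPM per kilobase. The ranges of GBP4 and GBP3 did not overlap. In treated WT the range of GBP4 reached 88.7 CPM per kilobase and overlapped that of GBP5, which began at 77.1. GBP6 lay 29.3-fold below GBP3 in WT and 27.1-fold in KO, and GBP7 a further 11.8-fold and 10.8-fold below GBP6. Thus the resting leader GBP3 took the fifth place after IFNγ, and GBP6 and GBP7 were the last in both treated groups.

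**Figure D2:**
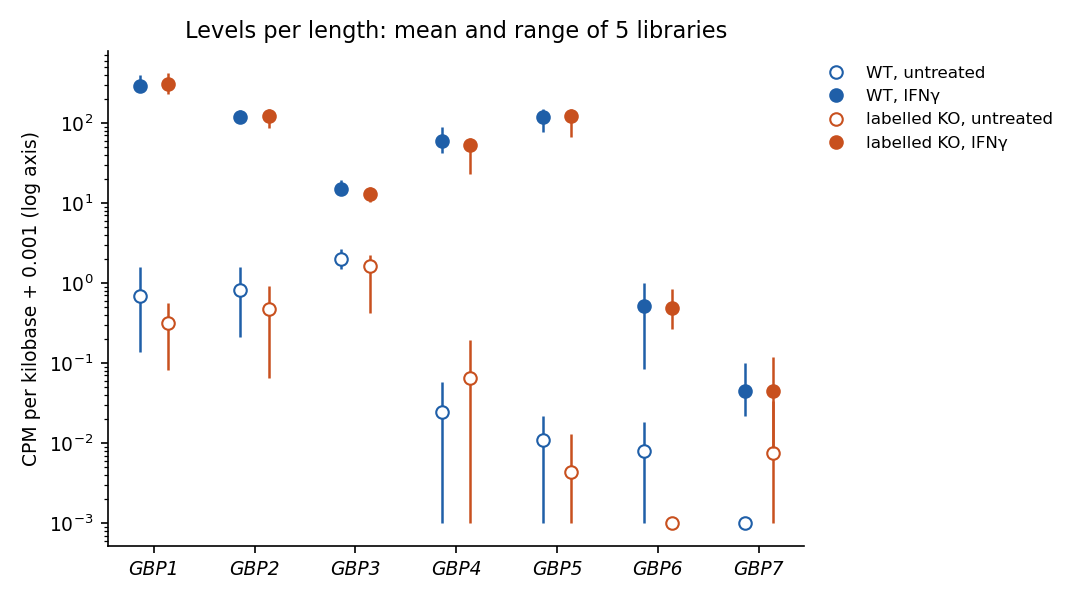
Level per length of each member (CPM per kilobase plus 0.001, log axis), as the mean of 5 libraries with lines from the lowest to the highest; open circles are untreated and filled circles IFNγ-treated. GBP3 leads among the open circles and GBP1 among the filled ones, and the ranges of treated WT and KO libraries overlap for each member.

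As a share of all counts of a library, the 7 members took 0.00127% ± 0.000486 in untreated WT and 0.000895% ± 0.000442 in untreated KO (SD, n = 5 each). After IFNγ the share was 0.250% ± 0.0438 in WT and 0.251% ± 0.0329 in KO. The make-up of that share changed as well. GBP3 supplied a mean of 58.9% of the family's counts in untreated WT and 65.2% in untreated KO, and 2.07% and 1.71% after treatment. GBP1 and GBP5 supplied 33.1% and 31.7% in treated WT, and 34.7% and 31.5% in treated KO. In treated KO replicate 2, GBP1 made up 54.96% of the family's counts and GBP4 6.41%.

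The ratio of the highest to the lowest clone was smaller after IFNγ for GBP1, GBP2 and GBP3 in both genotypes. For GBP1 the highest WT clone stood 1.58-fold above the lowest, for GBP2 1.45-fold and for GBP3 1.42-fold, and among the clones labelled KO these ratios were 1.81, 1.74 and 1.54. The untreated ratios of GBP2 and GBP3 among these clones rest on replicate 2: the other 4 lay between 1.52 and 3.75 CPM for GBP2 and between 5.83 and 7.42 CPM for GBP3. GBP4 and GBP5 differed by 2.11-fold and 1.93-fold among treated WT clones and by 2.87-fold and 2.22-fold among treated clones labelled KO. GBP6 kept a wide spread of 11.8-fold in WT, where replicate 5 had 21 counts. At counts below 100, as for untreated GBP1, counting error is part of this spread.

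WT clones and clones labelled KO did not differ in any member by the thresholds used. In IFNγ-treated libraries none of the 6 members tested was called, where 0.0155% of 19383 genes were, and none reached an unadjusted p of 0.05 with edgeR or DESeq2, while 843 genes did with edgeR. The levels listed above overlapped for every member. The WT over KO log2 fold changes were -0.06 for GBP1, -0.05 for GBP2, 0.21 for GBP3, 0.17 for GBP4, -0.03 for GBP5 and 0.10 for GBP6. The 95% intervals reached from 0.727-fold to 1.27-fold for GBP1 and from 0.734-fold to 1.27-fold for GBP2. They ran from 0.919-fold to 1.45-fold for GBP3, from 0.727-fold to 1.75-fold for GBP4 and from 0.673-fold to 1.43-fold for GBP5. For GBP6 the interval of 0.485-fold to 2.39-fold left room for a change of over 2-fold. Without KO replicates 4 and 5 the values lay between -0.05 for GBP1 and 0.37 for GBP3, and without KO replicate 3 between -0.13 for GBP2 and 0.24 for GBP4, with no call in either set. The 3 epithelial markers EPCAM, CDH1 and KRT18 summed to 207 to 464 CPM in treated WT and 235 to 543 CPM in treated KO. Without IFNγ they summed to 167 to 293 and 281 to 388 CPM. KRT18 made up nearly all of these sums, as group means reached at most 5.62 CPM for EPCAM and 1.33 CPM for CDH1. The part of these markers in the comparisons was not tested.

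In untreated libraries 4 members, GBP1 to GBP4, were tested and none was called, where 0.0154% of 19505 genes were; none of the 4 reached an unadjusted p of 0.05 with edgeR or DESeq2 on all 10 libraries (1 did without WT replicate 5, and 2 of 6 tested did when all 20 libraries were fitted together), while 935 genes did with edgeR. The means of GBP1 were 1.997 ± 1.60 CPM in WT and 0.919 ± 0.626 CPM in KO, and those of GBP2 were 3.31 ± 2.32 and 1.91 ± 1.30 CPM (SD, n = 5 each). The clones of both genotypes overlapped for each member. The WT over KO log2 fold changes of 1.11, 0.78, 0.31 and -1.46 for GBP1, GBP2, GBP3 and GBP4 came with 95% intervals of 0.777-fold to 6.002-fold, 0.647-fold to 4.54-fold, 0.704-fold to 2.17-fold and 0.0775-fold to 1.69-fold. The intervals of all 4 thus include a difference of 2-fold. Without KO replicates 4 and 5 the values were 1.11, 0.60, 0.46 and -1.81, and without KO replicate 3 that of GBP4 was -0.51.

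**Figure D3:**
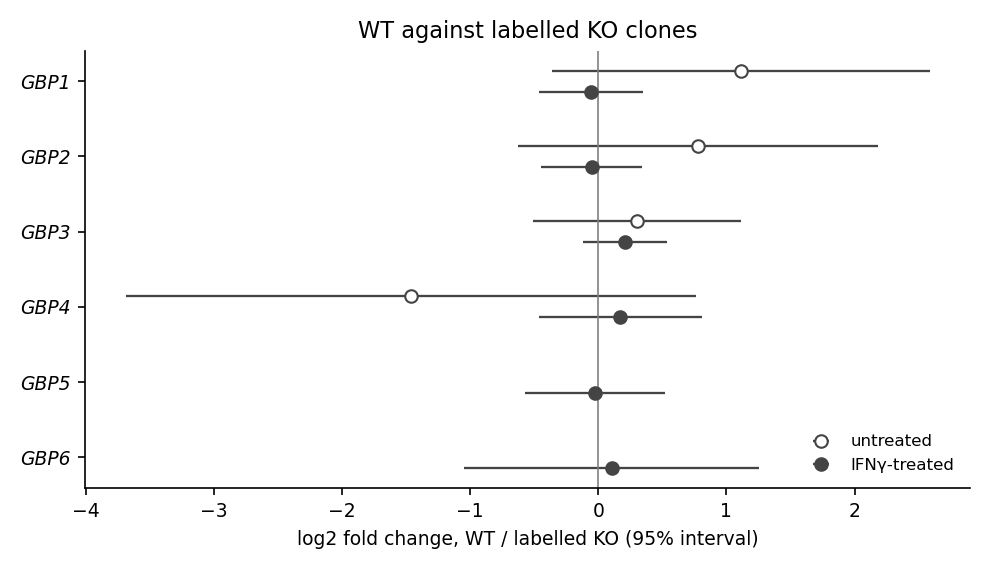
Log2 fold change of WT over labelled KO clones for GBP1 to GBP6, with 95% intervals from edgeR; open circles are untreated libraries (GBP1 to GBP4 only) and filled circles IFNγ-treated ones. Every interval includes 0, and those of the treated libraries are narrower, as for GBP1 from -0.46 to 0.35 against -0.36 to 2.59.

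The responses of the genotypes to IFNγ were also compared directly. By edgeR, no member was called for a difference in response, and neither was any other of the 21052 genes tested, so that percent called was 0. This fit did not use the pairing of libraries by clone label. With the clone as a block, 317 genes reached an unadjusted p of 0.05 by edgeR, and again none was called. All of these counts are below what chance gives at 0.05, so an absent call does not show equal responses. Without the block, 86 genes reached that p with edgeR and 115 with DESeq2. They included GBP6 with a log2 difference of -3.88 (unadjusted p = 0.0205, adjusted p = 1 by edgeR), a value that turns on the absence of untreated counts in the clones labelled KO and became -0.85 with the larger prior count of 2. The log2 difference, WT minus KO, was -1.18 for GBP1 (95% interval -2.61 to 0.25), -0.83 for GBP2, -0.10 for GBP3, 1.68 for GBP4 (95% interval -0.22 to 3.57) and -1.28 for GBP5. Without KO replicates 4 and 5 these were -1.16, -0.48, -0.10, 2.12 and -0.78, again with no call, and without KO replicate 3 the value of GBP4 was 0.76.

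Within each clone, the response was the difference of log2(CPM + 0.1) between its treated and untreated library. GBP1 rose by 9.53, 8.73, 8.21, 7.93 and 10.58 in WT replicates 1 to 5 and by 8.84, 11.61, 9.27, 11.49 and 8.82 in the replicates labelled KO. The clones with the largest responses, WT replicate 5 and KO replicates 2 and 4, were those with the fewest untreated counts. The measure subtracts untreated levels, which varied more between clones than treated ones. KO replicates 2 and 4 also had the highest treated GBP1 levels of their group, 1200 and 965 CPM. WT replicate 5 stood at 750 CPM, within the range of the other treated WT clones. The part of each level in these responses was not tested. GBP4 rose by 10.75, 10.39, 9.92, 10.70 and 11.59 in WT and by 9.79, 10.45, 8.23, 10.28 and 9.85 in KO. Its WT mean lay 0.95 above the KO mean, the smallest p of the family (p = 0.0556, two-sided exact permutation test, 5 against 5 clones, smallest p possible 0.00794), and 1.18 without KO replicates 4 and 5 (exact permutation p = 0.107). For the other 6 members the exact permutation p lay between 0.214 for GBP5 and 0.651 for GBP3, over 7 tests in all, and without KO replicates 4 and 5 between 0.357 and 0.714.

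**Figure D4:**
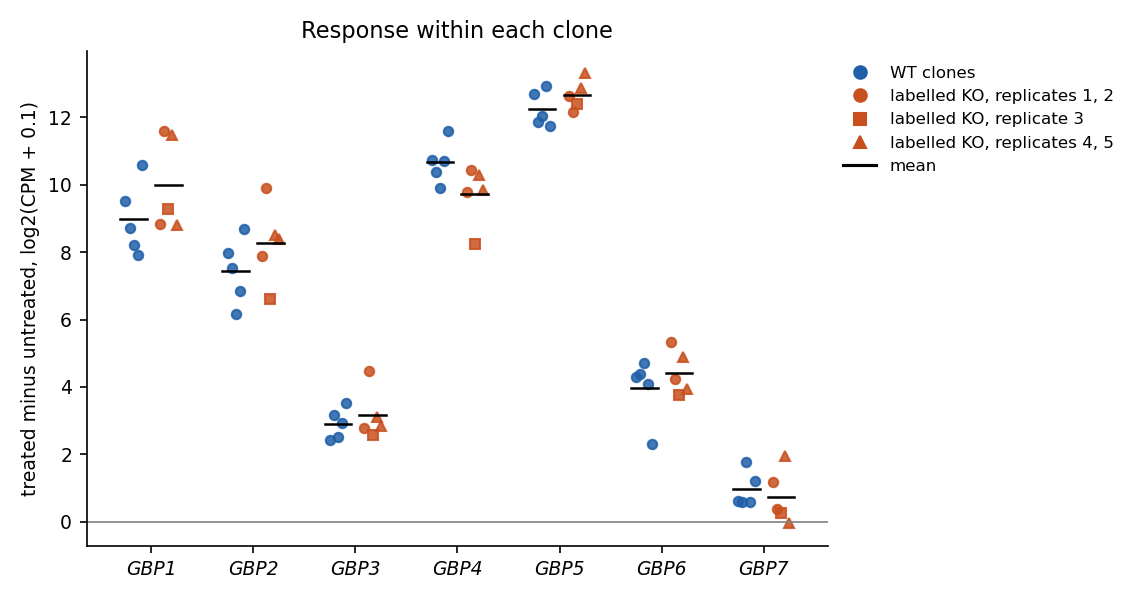
Response of each member within each clone, as treated minus untreated log2(CPM + 0.1), with black lines at the means; squares mark labelled KO replicate 3 and triangles KO replicates 4 and 5, whose libraries may not pair. The values of WT and KO clones overlap for all 7 members, with means of 12.26 and 12.67 for GBP5 and 2.91 and 3.15 for GBP3.

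The genes that carry the signal to GBP promoters rose in part. Of 12 genes of IFNγ signalling, 6 were called higher in WT and the same 6 in KO, among them the kinase JAK2, the transcription factors STAT2, IRF1 and IRF9, and the feedback inhibitor SOCS1. IRF1 had a log2 fold change of 4.96 ± 0.13 in WT and 4.72 ± 0.33 in KO, and JAK2 one of 1.89 ± 0.17 and 1.71 ± 0.23. SOCS1 had 2.20 ± 0.31 and 2.10 ± 0.26. The 12 genes had a median log2 fold change of 1.12 in WT and 1.11 in KO. None of the 12 was called between WT and KO. On this scale the fold changes of GBP1, GBP2, GBP4, GBP5 and GBP6 in WT were above that of IRF1, and that of GBP3 was below it.

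None of the 5 genes that attach and trim the prenyl anchor, FNTA, FNTB, PGGT1B, RCE1 and ICMT, was called after IFNγ in either genotype, with log2 fold changes from -0.54 to 0.43 in WT and from -0.32 to 0.39 in KO. Of 10 genes for partners of the GBPs in defence, 6 of 9 tested were called higher in WT and 3 of 8 tested in KO. CASP1 and CASP4, inflammatory caspases that act downstream of GBP-coated bacteria, had log2 fold changes of 5.41 ± 0.44 and 2.14 ± 0.12 in WT and of 5.26 ± 0.75 and 2.08 ± 0.27 in KO. APOL3, a detergent-like protein that lyses bacteria once GBPs have opened their outer membrane, had 7.22 ± 0.53 and 7.31 ± 0.51. GSDMD, the pore-forming gasdermin, AIM2, a DNA sensor, and NLRP3, an inflammasome sensor, had 1.04 ± 0.12, 4.94 ± 0.97 and 1.87 ± 0.31 in WT, where all 3 were called. In KO, GSDMD had 0.84 ± 0.19 and NLRP3 1.37 ± 0.55 (adjusted p = 0.0205 and 0.16 by edgeR), and AIM2 was not tested, with a treated mean of 7.21 CPM against 2.24 CPM in WT. None of these 3 was called for a difference in response. FURIN, the protease that GBP5 is known to inhibit, had 0.03 ± 0.31 in WT and -0.21 ± 0.26 in KO. Of 13 other genes of the dynamin superfamily, which include the mitochondrial fusion and fission GTPases, MX2 alone was called in each genotype, with 3.83 ± 0.42 and 4.11 ± 0.77.

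Of the genes beside the cluster, the pseudogene rose and most protein-coding neighbours did not pass the thresholds. GBP1P1, the pseudogene next to GBP6, rose from 75, 80, 132, 86 and 26 counts to 3079, 3087, 3416, 5194 and 2743 counts in WT, a log2 fold change of 5.37 ± 0.41, and by 5.97 ± 0.27 in KO. Of the 8 flanking genes, PKN2, GTF2B, KYAT3 and RBMXL1 on one side and LRRC8B, LRRC8C, LRRC8D and ZNF326 on the other, none was called in WT, with log2 fold changes from -0.34 to 1.06. KYAT3, a kynurenine aminotransferase whose gene overlaps that of RBMXL1, was called in KO with 1.06 ± 0.19 and had 1.06 ± 0.27 in WT (adjusted p = 0.00745 and 0.026 by edgeR). LRRC8D, a subunit of a volume-regulated anion channel, had 0.76 ± 0.19 and 1.04 ± 0.20 (adjusted p = 0.0223 and 0.0106). GBP7, between GBP2 and GBP4, was thus the low member amid neighbours that were abundant after IFNγ.

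**Figure D5:**
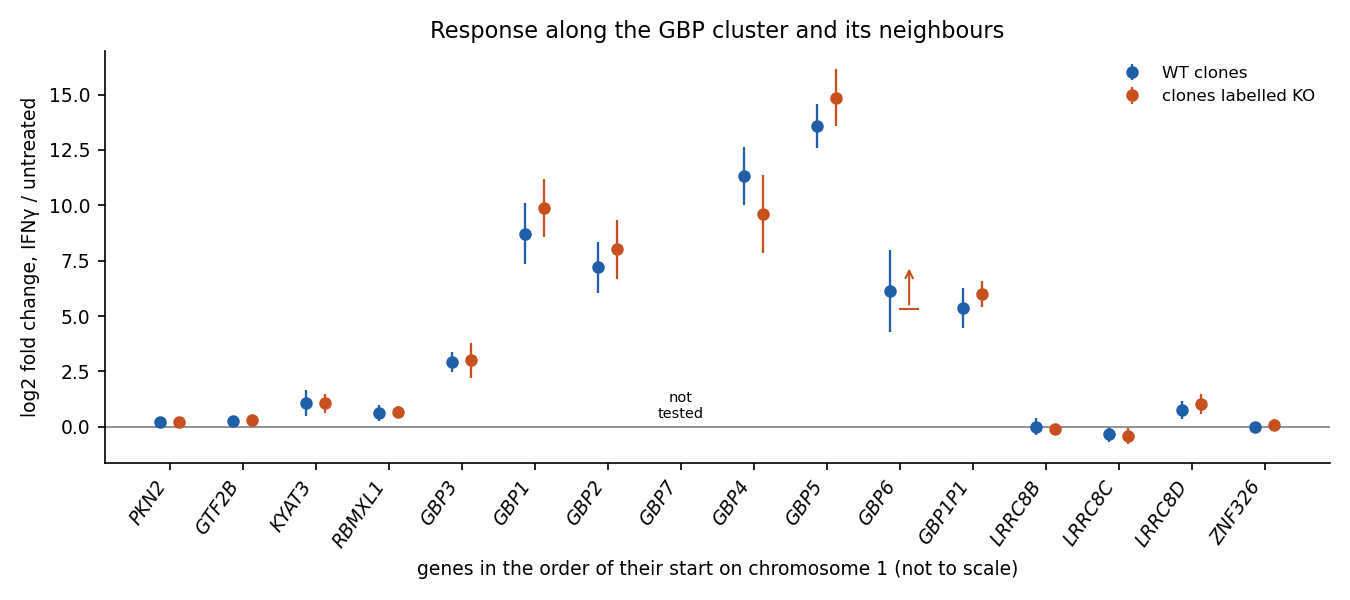
Log2 fold change after IFNγ for the genes of the cluster and 8 flanking genes in their order on chromosome 1, with 95% intervals from edgeR; the arrow marks the lower bound for GBP6 in clones labelled KO, and GBP7 was not tested. The 6 tested members and GBP1P1 lie between 2.92 and 14.85, and the flanking genes between -0.41 and 1.06.

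Members share few long runs of identical exon sequence. Such exact runs do not measure how similar the members are with mismatches, which the alignment allowed. Only uniquely mapped read pairs were counted, and of all runs of 150 bases, the length of 1 read, in the exons of each member, none occurred in another member or in GBP1P1. Of runs of 50 bases, 9.56% of those of GBP1 did, 2.80% of those of GBP3, 0.990% of those of GBP2 and none of those of GBP5 and GBP6. The pseudogene GBP1P1 had the highest share, as 13.1% of its runs of 50 bases occurred in GBP1. The part of such runs in the rise of GBP1P1 was not tested. On the opposite strand, exons of an uncharacterised gene, LOC112268267, covered 10.9% of the exon bases of GBP2, those of LOC105378842 covered 8.86% of GBP7 and those of LOC107985076 covered 2.41% of GBP4. The strand setting of the counting is not given in the sources used here, so reads from these stretches cannot be assigned with certainty.

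Genes whose profile over the 20 libraries was most like that of a member were found by the mean absolute difference of centred log2(CPM + 0.1) values among 21046 genes. GBP5 was nearest to IDO1, the tryptophan-degrading enzyme, with a difference of 0.36, while its next neighbour CXCL9 was at 1.49. GBP4 was nearest to the chemokines CXCL9, CXCL10 and CXCL11, at 0.80 to 0.92. GBP1 and GBP2 were both nearest to PLAAT4, an interferon-induced phospholipase, at 0.69 and 0.42. GBP3 was nearest to IFIH1, a sensor of double-stranded RNA, PSMB8, a subunit of the immunoproteasome, and PARP9, at 0.26 to 0.29. GBP6 was nearest to HLA-E, TAP1 and IL18BP, at 0.45 to 0.48. Among members, GBP1 and GBP4 were the closest pair at 0.79, and GBP3 and GBP5 the most distant at 4.72. These values are descriptions over 20 libraries that share the treatment. Untreated levels of GBP4, GBP5 and GBP6 lay near or below the 0.1 CPM added, which therefore sets part of their profiles and of their nearest genes. GBP6 rose by a mean of 3.96 in WT on this scale, against 6.15 by edgeR.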

How the data were processed

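The authors sequenced stranded poly(A) libraries as read pairs and, per the labels and the submitters' processing notes, aligned them to GRCh38 with STAR 2.7.9a and counted uniquely mapped pairs per RefSeq gene with featureCounts 2.4.0. The deposited table holds whole-number counts for 20 libraries and, as another value, each gene's exon length; 0 columns could not be mapped to a sample. The strand setting of the counting is not given in the sources used here. Groups were taken from the genotype, treatment and clone labels.

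From these counts, edgeR 4.0.16 (R 4.3.3) gave TMM-scaled CPM and quasi-likelihood tests over all genes that passed its expression filter, fitted on the 10 libraries of a comparison, or on all 20 for the difference in response, with Benjamini-Hochberg adjustment. A call needed an adjusted p below 0.01 and over 2-fold in every comparison, as the study took for WT against KO; for IFNγ against untreated it marked genes past a higher fold. The study used DESeq2 1.40.1, and DESeq2 1.42.0 was run as an alternative. The scripts were tested on simulated data. P-values measure the spread between clones of a single line. Clone labels pair treated with untreated libraries, and same-clone deviations correlated by -0.020 to 0.80 over 21052 genes; WT and KO numbers share only a number. Other alternatives were another scaling, no filter, other thresholds, prior counts and pseudocounts, a fit of all 20 libraries, the clone as a block, and leaving out libraries. All 7 members are named. List genes are named where called in at least 1 comparison or where their role needs the value. Values of some list genes are not reported here. Members, lists and tests were chosen with earlier results of these data known.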

Additional observations from a re-analysis of the deposited data

Results flagged for a closer look

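Of the 30 sets of 5 libraries tested (a member, or the share of the whole family, in a group), 4 held a library whose gap to its nearest neighbour took over 0.71 of the whole range, where chance gives about 5% of sets. GBP1 stood at 1130.2 CPM in treated WT replicate 4, against 717 to 814 CPM in the other 4 clones. GBP3 stood at 64.7 CPM in treated WT replicate 5, against 45.6 to 49.0 CPM, and at 1.44 CPM in untreated KO replicate 2, against 5.83 to 7.42 CPM. GBP7 stood at 0.0792 CPM in untreated KO replicate 5, which is 4 counts, and at 0 in the other 4.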

How the results depend on the processing

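With a single clone left out, 241 recomputed values were labelled as kept, 17 changed sign and 2 lost the call. Fold changes were kept if their direction and their side of the threshold held. Counts of members called were kept if close to the main count, such as 5 in place of 6 without WT replicate 2. Under the other settings, 309 were labelled as kept, among them ranks and shares of counts. Another 4 changed sign, 4 ranks moved, and GBP2, GBP3, GBP4 and GBP6 lost their calls in KO. Without KO replicates 4 and 5, 2 of 6 members were called higher in the clones labelled KO, where 22 genes in all were called against 379; the fewer libraries are part of this, and the cause was not tested further. Ranks without division by length moved in KO only, from 6 to 5 for GBP5 and from 5 to 6 for GBP7 untreated, and from 2 to 3 for GBP2 and from 3 to 2 for GBP5 treated. WT over KO differences in treated libraries, all uncalled, changed sign: with the replicate block to 0.0060 for GBP5 and -0.13 for GBP6, and without KO replicates 4 and 5 to 0.12 for GBP2 and 0.24 for GBP5. With a clone left out they ran from -0.18 to 0.089 for GBP1, -0.15 to 0.026 for GBP2, -0.016 to 0.28 for GBP4, -0.17 to 0.096 for GBP5 and -0.28 to 0.39 for GBP6, and the difference in response of GBP3 from -0.27 to 0.063.

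With the clone as a replicate block, 6 members were called in each genotype, as without it, and none for the response; between genotypes the block pairs numbers that different clones only share, and no member was called with it. Calls over all genes rose from 585 to 1414 in WT and from 379 to 721 in KO. They were 976 and 823 with DESeq2 without shrinkage, 2202 and 1528 at an adjusted p below 0.05 with no fold limit, 613 in KO with shrinkage, 642 in KO with all 20 libraries fitted together, and fell to 318 in WT without replicate 2 and 131 in KO without replicate 4. For WT against KO, DESeq2 gave 16 calls with IFNγ and 12 without it, none of them a member, against 3 and 3 by edgeR. The size of the fold changes depends on shrinkage: DESeq2's normal prior gave log2 values in WT and KO of 4.38 and 5.09 for GBP1, 4.36 and 4.25 for GBP2, 2.60 and 2.25 for GBP3, 5.19 and 1.46 for GBP4, 9.83 and 9.11 for GBP5 and 2.10 and 3.32 for GBP6, all still called. Depth limits GBP7 throughout and GBP5 and GBP6 without IFNγ.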
